A study of Rattus norvegicus with 24 samples.

Results

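The effect of cigarette smoke on the rat lung was averaged over 3 particle conditions, with each smoke group set against the air group of its own particle condition. All 24 arrays of the series entered, 12 from smoke rats and 12 from air rats, 1 array per rat, each of RNA from the right caudal lobe of the lung. The genes described are those past the threshold in this average whose smoke effect had the same direction in all 3 particle conditions, which were 868 of 14217 genes, or 6.11%. A gene was read from its brightest probe set, among probe sets with exactly 1 gene symbol.

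All animals were males of the outbred Sprague-Dawley strain. Their age is 17 weeks in the labels of single rats and 10 to 15 weeks in the description of the series. The 12 smoke rats received cigarette smoke nose-only, together with whole-body exposure to air, Iraqi sand or silica, 4 rats each. The 12 air rats received clean air nose-only, together with the same 3 whole-body exposures, 4 rats each. The smoke concentration was set at 0.48 mg/L as wet total particulate matter, given in daily sessions of 3 hours, 5 days weekly. It lasted 5 weeks per the treatment labels, but 6 weeks per the description of the series. Sand and silica were set at 1 mg/m3 and ran for 2 weeks, 18 hours daily and 7 days weekly. The description names 102 rats, 17 in each of 6 groups, of which 4 per group are analysed here. Every rat was therefore restrained in a nose-only tube and housed in an exposure chamber, and the air groups share this handling. Each value is a log2 intensity, so that a difference of 1 is a doubling, and 12 rats a side limit the precision.

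Alveolar macrophages clear inhaled particles from the air spaces by taking them into lysosomes, and in smokers they are known to accumulate with ingested material. Airway epithelium answers irritants by making more mucus and antibacterial proteins, and lung cells meet oxidants with glutathione, whose genes are known targets of the transcription factor NRF2. The lung also has its own circadian clock, a feedback loop of transcription factors.

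Lung markers were high on every array, with the alveolar type 2 surfactant gene Sftpc at 14.82 to 14.90 in smoke rats and 14.79 to 14.95 in air rats, and the club cell secretoglobin Scgb1a1 at 14.62 to 14.97 in smoke rats and 14.89 to 14.97 in air rats. Some rats stood apart. Rat 302 (air with Iraqi sand) correlated with the rest of the arrays at 0.944 on average, and the next lowest average was 0.980 in rat 604. The mean of 21 heart muscle genes was 5.79 to 7.12 in smoke rats and 5.74 to 8.74 in air rats, where rats 302 and 104 (air alone) held the highest values of 8.74 and 8.71. Rat 604 (smoke with silica) had the highest cell cycle mean, 8.54 over 39 genes. Leaving out these 3 rats kept 748 of the 908 calls described next, and leaving out rat 302 alone kept 898.

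In the average over particle conditions 908 genes, or 6.39%, passed at an adjusted p under 0.05 in limma's moderated test with Benjamini-Hochberg adjustment, and 3482 had an unadjusted p under 0.05. Effects listed for the 3 conditions are given in the order without particles, under Iraqi sand and under silica. Of these 382 rose (2.69%) and 526 fell (3.7%). The same direction in all 3 particle conditions was shown by 868 of the 908, of which 356 rose (2.5%) and 512 fell (3.6%), whereas 44.4% of all genes had 1 direction. The direction enters the average, so this share is a description. At least 2-fold rises were found for 17 genes (0.12%) and at least 2-fold falls for 3 (0.0211%). The median change over all genes was -0.02. Left out singly, rat 203 gave the lowest count of calls, 586, and rat 302 the highest, 1463. With each rat left out in turn 538 calls were kept throughout, and 520 of these had 1 direction.

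The 3 particle conditions share no animals, so each was also used as a check on calls made in the other rats. Genes called on the sand and silica conditions alone numbered 108, and 101 of them, or 93.5%, had the same sign in the 8 rats without particles, against 64.1% of all genes. Of 312 genes called on the air and Iraqi sand conditions, 294 (94.2%) had the same sign under silica, against 68.1% of all genes. Of 713 genes called on the air and silica conditions, 589 (82.6%) had the same sign under Iraqi sand, against 62.7% of all genes. The 47 genes that rose with sand and silica had a median change of 0.76 in the rats without particles, and the 61 that fell a median of -0.23. The 398 that rose with air and silica had a median of only 0.17 under Iraqi sand. Without rat 302 the share under Iraqi sand was 87.5%.

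In 16 genes, 0.113% of all tested, the 12 smoke rats and the 12 air rats did not overlap at all. The 10 genes higher in every smoke rat (0.0703%) included the lysosomal protease Ctsd, the sialic acid receptor Cd33 of myeloid cells, and the secreted acidic chitinase Chia. Chia stood at 12.88, 13.54 and 14.02 in smoke rats (lowest, median and highest), against 9.95, 12.17 and 12.50 in air rats. Rat 104 held the lowest air value, far under the other 11. Chia rose by 1.51 ± 0.20 (SE, adjusted p = 1.24e-04 in limma), and was also called without rats 302, 104 and 604. Ctsd, the main aspartic protease of lysosomes, stood at 13.12, 13.26 and 13.51 in smoke rats and at 12.25, 12.68 and 13.05 in air rats. The gap between the groups was narrow for Ctsd, but no air rat reached the lowest smoke rat. Cd33 stood at 8.65, 8.90 and 9.47 in smoke rats and 7.99, 8.26 and 8.63 in air rats. In both Ctsd and Cd33 the 4 air rats without particles were the lowest of the air rats, at 12.49 or less for Ctsd and 8.08 or less for Cd33.

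Of the same 10 genes, Bhlhe41 and Cry1 are repressors of the circadian clock and are described with it. Tpmt, which methylates thiopurine drugs, stood at 8.61, 8.86 and 9.28 in smoke rats and 8.01, 8.34 and 8.60 in air rats. The kinase Ripk2, which acts below the NOD receptors for bacterial wall fragments, rose by 0.32 ± 0.06, and the intermediate filament gene Vim by 0.29 ± 0.04. Slx4ip, named for a partner in DNA repair, rose by 0.44 ± 0.10, and RGD1359108 by 0.22 ± 0.03. Within single conditions the rises of these 5 genes ran from 0.18 for RGD1359108 without particles to 0.59 for Slx4ip under Iraqi sand.

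The 6 genes lower in every smoke rat (0.0422%) have no function in common by their known roles. Adra1b, an adrenergic receptor, stood at 6.44, 6.83 and 6.96 in smoke rats and at 7.04, 7.40 and 8.14 in air rats, a fall by 0.66 ± 0.09, with changes without particles (-0.68), under Iraqi sand (-0.70) and under silica (-0.61). Prkcd, a protein kinase C, stood at 9.90, 10.05 and 10.23 in smoke rats and at 10.24, 10.52 and 10.74 in air rats. Igfbp7, a secreted binding protein made by vessels, fell by 0.25 ± 0.04. The actin-binding genes Dmtn and Triobp fell by 0.44 ± 0.07 and by 0.18 ± 0.04, and the calcium-binding gene S100a1, known from heart muscle, by 0.35 ± 0.08. Rat 302, with its heart muscle transcripts, held the highest air value of Adra1b, Dmtn, Triobp and S100a1. All 16 genes were also called without rats 302, 104 and 604. A weaker form of separation, no overlap within any of the 3 conditions and the same direction in each, was met by 65 genes (0.457%), 28 higher and 37 lower.

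**Figure D1:**
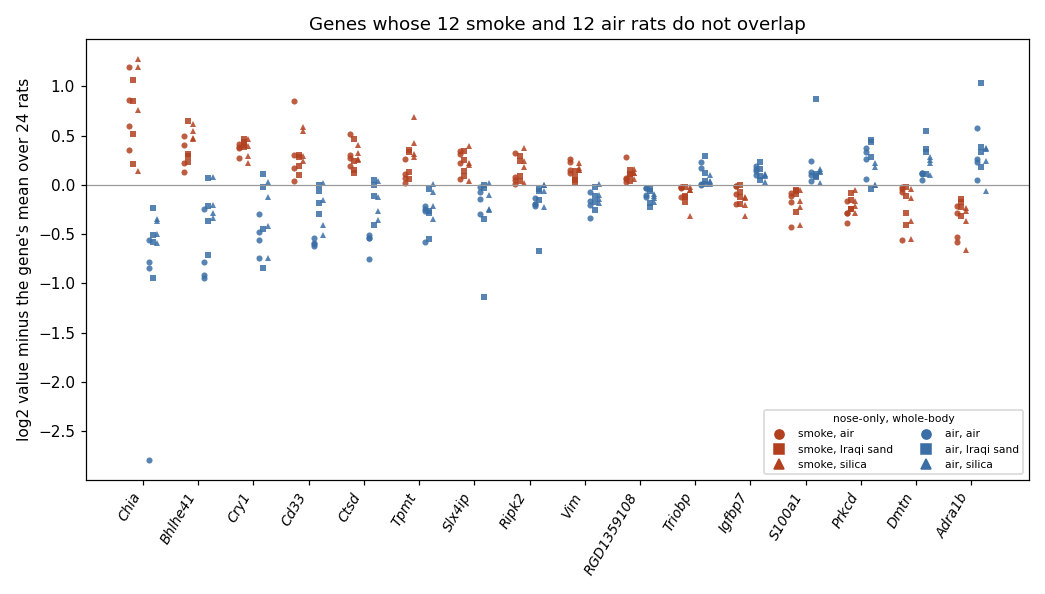
Each rat's log2 value minus the gene's mean over 24 rats (vertical axis) for the 16 genes whose 12 smoke rats (red, left) and 12 air rats (blue, right) did not overlap, ordered by smoke effect, with symbols for the whole-body exposure. Chia had the widest gap and the single lowest air value (rat 104).

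Of 26 measured macrophage genes 12 rose (46.2%), 1 fell and 13 did not pass, with a median change of 0.39. Gpnmb, a glycoprotein of lipid-laden macrophages, stood at 12.98, 13.32 and 13.73 in smoke rats and 11.54, 12.12 and 13.09 in air rats. Of the air rats only rat 501, under silica, lay above the lowest smoke values. By condition Gpnmb averaged 13.32 ± 0.27 in smoke rats and 11.83 ± 0.23 in air rats without particles, 13.19 ± 0.22 in smoke rats and 12.30 ± 0.39 in air rats under Iraqi sand, and 13.46 ± 0.05 in smoke rats and 12.49 ± 0.41 in air rats under silica (SD, n = 4 each). The lowest of these means was that of the air rats without particles. Cd68, a lysosomal membrane protein used to stain macrophages, stood at 10.88, 11.29 and 11.75 in smoke rats and 9.86, 10.26 and 11.12 in air rats, and only air rat 501 exceeded the lowest smoke values. In whole tissue, more cells of a type and more RNA per cell cannot be told apart.

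The lipid receptor Trem2 rose by 1.15 ± 0.22 (adjusted p = 0.0029), the elastase Mmp12 by 1.18 ± 0.28 and the lectin Lgals3 by 0.54 ± 0.06. Mmp12 varied widely among rats, with 7.33, 8.32 and 10.07 in smoke rats and 6.40, 7.30 and 8.32 in air rats, and its change was 1.76 without particles, 0.39 under Iraqi sand and 1.40 under silica. The macrophage gene that fell was Adgre1, the adhesion receptor known in mouse as F4/80, by 0.60 ± 0.09 (adjusted p = 2.76e-04) and was chosen after its values were seen. Arg1, the arginase of alternatively activated macrophages, stood at 9.02, 9.32 and 10.05 in smoke rats and 7.79, 8.37 and 9.32 in air rats, a rise by 0.96 ± 0.12. Mreg, known for organelle transport, rose by 1.22 ± 0.17. The lipoxygenase Alox15 rose by 1.23 ± 0.28, with 2.16 under silica against 0.76 and 0.78 without particles and under Iraqi sand. The difference of the Alox15 effect between conditions did not pass (adjusted p = 0.838 in limma's F test).

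Of 39 lysosomal enzymes and membrane proteins 16 rose (41.0%) and none fell, with a median change of 0.16. Ctsk, a protease of osteoclasts and macrophages, was at 7.85, 8.48 and 9.44 in smoke rats and 7.19, 7.56 and 8.07 in air rats, a rise by 0.97 ± 0.13. Smaller and steadier changes were those of the peptidase Tpp1, at 0.22 without particles, 0.20 under Iraqi sand and 0.23 under silica, and of the tetraspanin Cd63, at 0.39, 0.21 and 0.27. The median of the list was 0.30 without particles, 0.01 under Iraqi sand and 0.21 under silica, and without rat 302, an air rat with Iraqi sand, 26 of the 39 rose. Of 16 subunits of the proton pump that acidifies lysosomes 3 rose, among them Atp6v1b2 by 0.29 ± 0.05 and Atp6v0a1 by 0.16 ± 0.04. With single rats left out the count ran from 2 to 6, the 6 without rat 302. The third, Atp6ap2, rose by 0.30 ± 0.09 (adjusted p = 0.0492 in limma). Its call was kept only without rat 301, 302, 304, 305 or 605 when rats were left out singly. Of 23 lipid handling genes 7 rose and none fell. These included the lysosomal lipase Lipa, by 0.28 ± 0.06, the cholesterol exporter Abcg1, by 0.43 ± 0.07, and the lipoprotein lipase Lpl, by 0.39 ± 0.09. The changes of the 3 probe sets of Abcg1 ran from 0.05 to 0.43. Lpl changed by 0.42 without particles, 0.33 under Iraqi sand and 0.41 under silica.

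**Figure D2:**
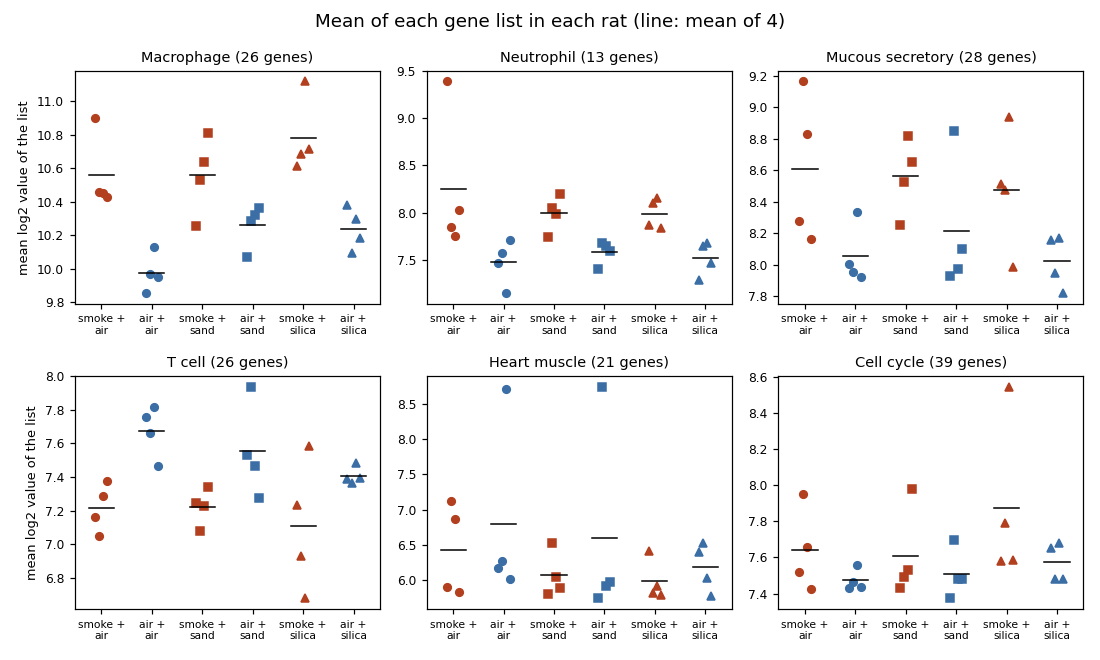
Mean log2 value of 6 gene lists in each rat (points) with the mean of 4 (line), smoke groups (red) left of the air group (blue) of the same whole-body exposure. Smoke rats had higher macrophage and neutrophil means and lower T cell means in each condition, with rat 201 far up for neutrophil genes, while rats 104 and 302 stood apart for heart muscle and rat 604 for cell cycle genes.

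The promoter of Ctsd is shown because its gene separated all smoke rats from all air rats. The sequence is that of RefSeq, build GRCr8, at chr1:206968772-206969071 on the minus strand, from 250 bases before to 50 bases after the gene's start, with the letters CACGTG in capitals. This palindrome is the E-box bound by many helix-loop-helix factors, including those of the clock and of lysosome genes.
Ctsd: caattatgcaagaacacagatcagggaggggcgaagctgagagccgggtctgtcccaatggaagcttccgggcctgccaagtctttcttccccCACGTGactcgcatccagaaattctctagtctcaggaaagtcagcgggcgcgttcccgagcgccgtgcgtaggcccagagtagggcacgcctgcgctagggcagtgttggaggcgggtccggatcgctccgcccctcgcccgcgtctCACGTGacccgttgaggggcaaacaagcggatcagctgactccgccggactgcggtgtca
The Ctsd promoter held 2 copies, 157 and 10 bases before the start. On either strand CACGTG was found in 6.42% of 33465 RefSeq promoters of this length, and in 2 of the 13 lysosomal genes that rose and have a promoter in that table, against 6 of the 33 measured lysosomal genes with one.

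Of 41 chemokine and cytokine genes 7 rose (17.1%), 2 fell and 32 did not pass. Cxcl1, a neutrophil attractant, stood at 9.55, 10.62 and 11.09 in smoke rats and 8.21, 9.07 and 10.79 in air rats, and all 4 air rats under silica lay within the range of the smoke rats. Cxcl1 averaged 10.58 ± 0.17 in smoke rats and 8.46 ± 0.19 in air rats without particles, 10.42 ± 0.60 in smoke rats and 9.11 ± 0.48 in air rats under Iraqi sand, and 10.63 ± 0.37 in smoke rats and 10.20 ± 0.39 in air rats under silica (SD, n = 4 each). Its smoke effect was 2.11 ± 0.26, 1.31 ± 0.26 and 0.43 ± 0.26 in that order, and the difference between conditions did not pass over all genes (adjusted p = 0.316 in limma's F test, unadjusted p = 7.60e-04). Cxcl2, of the same family, showed 1.04, 0.87 and 0.27, and the macrophage chemokine Ccl3 0.80, 0.41 and 0.24. Cxcr1, a receptor of such chemokines, rose by 1.00 ± 0.13. Cxcl14, an epithelial chemokine, went the other way, at 6.92, 8.84 and 9.30 in smoke rats and 9.02, 9.72 and 10.13 in air rats. It fell by 1.02 ± 0.22 (adjusted p = 0.0084).

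Of 13 neutrophil genes 2 rose, Cxcr1 and the calgranulin S100a9, and 4 were called without rat 305, 205 or 605. The mean of the 13 genes was 7.74 to 9.39 in smoke rats and 7.15 to 7.71 in air rats. The groups thus nearly touched but did not overlap, and smoke rat 201 alone exceeded 8.20. S100a9 stood at 10.39, 11.58 and 13.31 in smoke rats and 9.34, 10.20 and 11.23 in air rats, a rise by 1.35 ± 0.23. Its partner S100a8 was at 0.80 ± 0.24 and did not pass (adjusted p = 0.0517). The iron-binding protein Lcn2 had the largest difference of the defence genes, 2.16 ± 0.69, with 9.20, 13.54 and 14.23 in smoke rats and 6.20, 11.51 and 13.49 in air rats. The values of smoke and air rats overlapped over much of their range, and the difference did not pass (adjusted p = 0.0624).

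Of 22 secreted defence genes 6 rose (27.3%) with a median change of 0.57, and 10 were called without rat 302 or rat 605. The acute phase protein Saa3 stood at 7.45, 8.60 and 11.63 in smoke rats and 6.45, 7.43 and 8.40 in air rats, with rat 604 highest, and rose by 1.57 ± 0.37. Chi3l1, a chitinase-like protein of macrophages and epithelium, rose by 0.77 ± 0.17. Of 18 complement genes 3 rose, and 5 were called without rat 302 or rat 205. They were the central component C3, by 0.62 ± 0.12, and 2 of its regulators, Cfi, by 1.69 ± 0.31, and Cd46, by 0.61 ± 0.13. Cfi stood at 7.76, 9.17 and 10.50 in smoke rats and 6.34, 7.44 and 8.15 in air rats, and its change in the 3 conditions was 1.92, 1.68 and 1.48. C3 changed by 1.43 without particles, 0.36 under Iraqi sand and 0.08 under silica, a difference that did not pass (adjusted p = 0.195 in limma's F test).

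**Figure D3:**
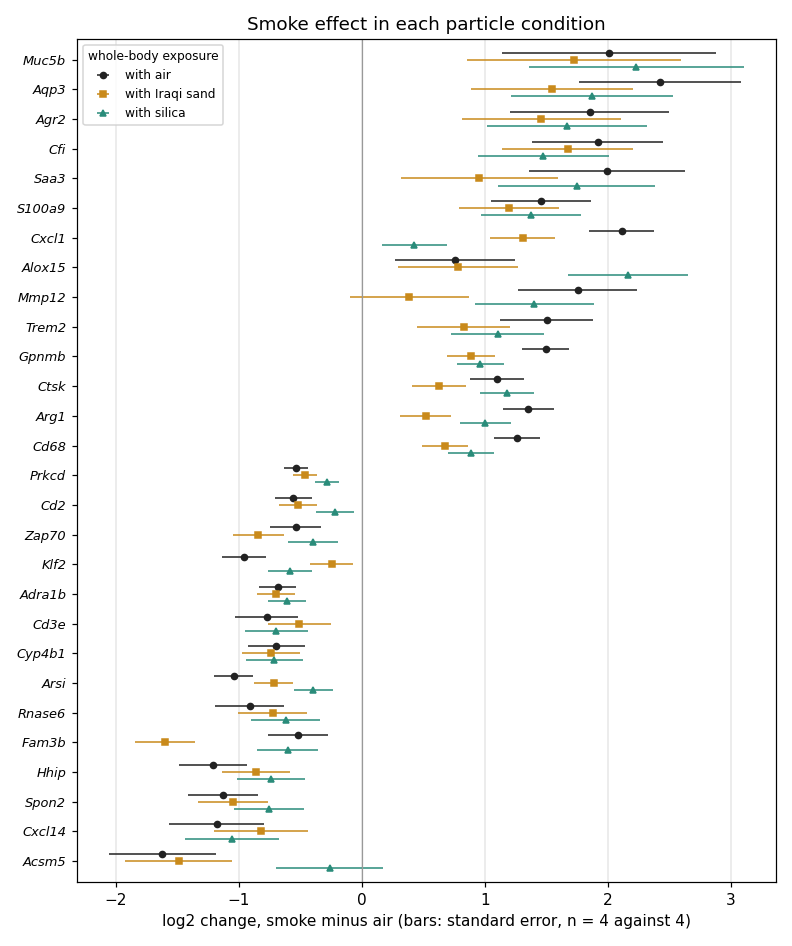
Smoke effect (log2 change with its standard error, 4 against 4 rats) without particles, under Iraqi sand and under silica for 14 genes that rose and 14 that fell in the average. The 3 estimates share a sign for each gene, and the estimates of Cxcl1 ran from 0.43 to 2.11 and those of Cfi from 1.48 to 1.92.

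Of 28 mucous and secretory genes 7 rose and 1 fell, the water channel Aqp5, and those that rose most varied widely between rats. Muc5b, a gel-forming airway mucin, stood at 8.63, 10.62 and 13.11 in smoke rats and 7.69, 8.22 and 10.47 in air rats, a rise by 1.99 ± 0.50 or 3.97-fold (adjusted p = 0.0215). Smoke rat 203 was highest and rat 605 lowest, and air rats 104 and 302, at 10.38 and 10.47, lay far above the other air rats. Agr2, which folds mucins, stood at 8.15, 10.48 and 12.47 in smoke rats and 7.71, 8.71 and 9.46 in air rats. The glycerol channel Aqp3 rose by 1.95 ± 0.38, with 2.43 without particles, 1.55 under Iraqi sand and 1.87 under silica. The anion exchanger Slc26a4 rose by 0.72 ± 0.17 and Galnt6, which starts O-glycosylation, by 0.47 ± 0.10.

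The mean of the 28 mucous genes was 7.98 to 9.16 in smoke rats and 7.82 to 8.85 in air rats. The mean of 18 ciliated cell genes was 8.44 to 9.96 in smoke rats and 8.51 to 9.29 in air rats. In smoke rats, rat 203 was highest and rat 605 lowest on both lists. Smoke rat 604 was next to highest for mucous genes, at 8.94, but lay at 9.16 for ciliated genes, under the smoke median of 9.26. How far both lists went together was not tested. In all 3 conditions 15 of the 18 ciliated genes were higher and none lower, against 2497 higher of all 14217 genes. Their median change was 0.29, and 7 had an unadjusted p under 0.05 in limma, all of them higher. Of the ciliated genes 1 rose past the threshold, the dynein light chain Dynlrb2, by 0.65 ± 0.17. This call was lost without rat 203, 204, 406, 504, 602 or 603. Without rat 605 6 ciliated genes were called, and without rat 205 5. The part of the sampled airway in the mucous gene changes was not tested. Gabrp, a GABA receptor subunit of epithelia, rose by 1.91 ± 0.43, and the desmosomal cadherin Dsc2 by 0.97 ± 0.16. Of 14 club cell genes 1 rose, the oxygenase Fmo2, by 0.57 ± 0.15, and 1 fell, the fatty acid oxidase Cyp4b1. Cyp4b1 stood at 10.94, 12.04 and 12.26 in smoke rats and 12.21, 12.63 and 12.85 in air rats, and its falls by 0.69, by 0.74 and by 0.71 are those of the 3 conditions. Scgb1a1 stood at -0.06 ± 0.04 (adjusted p = 0.312).

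Glutathione genes were among those that rose, but not as a whole list. Of 38 glutathione genes 7 rose (18.4%) and 4 fell, with a median change of 0.08. Gclc, the catalytic subunit of the limiting enzyme of glutathione synthesis, stood at 8.70, 8.93 and 9.48 in smoke rats and 8.47, 8.57 and 8.73 in air rats. Its partner Gclm stood at 8.67, 8.85 and 9.80 in smoke rats and 8.45, 8.54 and 8.82 in air rats. For both genes the highest air value, of rat 104, lay above the lowest smoke values, and smoke rats 203 and 604 were highest. The transferases Gsta3 and Gsta1 rose by 0.82 ± 0.16 and by 0.41 ± 0.06, and Mgst2, a membrane transferase, by 0.33 ± 0.06. The count of 11 called genes depended on single rats: it was 5 without rat 103, 203, 405, 502 or 504, 6 without rat 102, 204, 404, 602 or 603, and 7 without rat 104, 301 or 406. The mean of the list was 9.41 to 9.79 in smoke rats and 9.38 to 9.66 in air rats, with rats 604, 203 and 302 highest.

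Of 42 other redox and detoxification genes 3 rose and 2 fell, and 10 were called without rat 302, 8 without rat 605 and 3 without rat 103, 104, 201, 203, 405 or 504. The mitochondrial dismutase Sod2 rose by 0.60 ± 0.10 and the peroxiredoxin Prdx5 by 0.43 ± 0.06, whereas the aldose reductase Akr1b1 fell by 0.29 ± 0.08 and was not called without rats 302, 104 and 604. Of 14 genes that supply NADPH 5 rose (35.7%) and 1 fell. Idh1, a cytosolic NADPH producer, rose by 0.36 ± 0.08, Taldo1 of the pentose phosphate path by 0.24 ± 0.06 and the malic enzyme Me2 by 0.24 ± 0.06. The other probe set of Idh1 changed by 0.09 and that of Me2 by 0.07. The folate enzymes moved apart, the mitochondrial Mthfd2 rising by 0.31 ± 0.07 and the cytosolic Mthfd1 falling by 0.29 ± 0.05. Nqo1 was at 0.39 ± 0.14 and Hmox1 at 0.20 ± 0.13, both known NRF2 targets, and neither passed (adjusted p = 0.103 and 0.353).

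None of 11 genes of the aryl hydrocarbon receptor, which senses smoke hydrocarbons, passed in limma on the average, where 4 had an unadjusted p under 0.05, against 2 that passed without rats 302, 104 and 604. The receptor's target Cyp1a1 stood at 7.16, 7.89 and 9.04 in smoke rats and 7.12, 8.37 and 9.04 in air rats, a difference of -0.29 ± 0.19, and Cyp1b1 at 0.23 ± 0.14. Aldh3a1, another target, was at 0.49 ± 0.20, with the highest smoke value of 8.92 against a median of 7.03.

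Promoters of a pair of the glutathione genes are shown because both hold the antioxidant response element that NRF2 is known to bind, searched as TGACNNNGC on both strands and printed in capitals. Both are RefSeq sequences of build GRCr8, at chr2:213031885-213032184 on the plus strand for Gclm and chr9:31216483-31216782 on the minus strand for Gsta1.
Gclm: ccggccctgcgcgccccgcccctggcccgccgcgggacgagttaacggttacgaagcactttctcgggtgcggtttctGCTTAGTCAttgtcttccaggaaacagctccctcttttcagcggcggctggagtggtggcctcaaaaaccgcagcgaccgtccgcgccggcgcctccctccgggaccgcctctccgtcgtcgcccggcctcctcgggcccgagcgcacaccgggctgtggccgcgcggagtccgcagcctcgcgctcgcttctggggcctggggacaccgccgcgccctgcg
Gsta1: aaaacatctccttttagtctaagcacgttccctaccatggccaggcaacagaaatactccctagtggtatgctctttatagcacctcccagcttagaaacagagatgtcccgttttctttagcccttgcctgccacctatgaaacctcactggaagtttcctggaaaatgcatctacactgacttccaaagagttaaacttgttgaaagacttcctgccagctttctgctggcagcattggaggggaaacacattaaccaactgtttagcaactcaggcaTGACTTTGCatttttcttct
The element lay 172 bases before the start in Gclm, on the opposite strand, and after the start in Gsta1. It was found in 3 of the 6 glutathione genes that rose and have a promoter in the table, in 9 of the 31 measured ones, and in 12.1% of all promoters of this length.

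Clock genes moved in opposite directions. Of 20 clock genes 5 rose (25%) and 4 fell (20%), and the median change over the list was near 0. In the clock, Bmal1 with Npas2 or Clock switches on genes through E-boxes, among them the Per and Cry repressors, Bhlhe40, Bhlhe41 and Nr1d1, and the protein of Nr1d1 in turn represses Bmal1 and Npas2. Among the repressors, Cry1 stood at 9.32, 9.49 and 9.57 in smoke rats and 8.26, 8.67 and 9.21 in air rats, and Bhlhe41 at 10.05, 10.35 and 10.56 in smoke rats and 8.98, 9.61 and 10.00 in air rats. Both genes separated the groups in full. They rose by 0.75 ± 0.09 and by 0.81 ± 0.09 in that order, and the effects of Cry1 in the 3 conditions lay between 0.66 and 0.88. Per2 stood at 10.04, 10.43 and 10.63 in smoke rats and 8.64, 9.58 and 10.15 in air rats, and the only overlap was between smoke and air rats under silica. It rose by 0.85 ± 0.13 (adjusted p = 3.44e-04), while the other of its 2 probe sets changed by only 0.11. Per1 went the other way, by -0.43 ± 0.11, and it was no longer called without rat 103, 204, 406, 502, 504 or 603.

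Nr1d1 stood at 7.75, 8.85 and 9.38 in smoke rats and 9.20, 10.00 and 10.39 in air rats. It averaged 9.23 ± 0.10 in smoke rats and 9.75 ± 0.42 in air rats without particles, 8.70 ± 0.24 in smoke rats and 10.11 ± 0.19 in air rats under Iraqi sand, and 8.36 ± 0.52 in smoke rats and 9.80 ± 0.29 in air rats under silica (SD, n = 4 each). The fall by 1.12 ± 0.12 (adjusted p = 2.23e-05) came to -0.52 without particles, -1.41 under Iraqi sand and -1.44 under silica, and the difference between conditions did not pass (adjusted p = 0.748 in limma's F test). The activators fell too. Npas2 stood at 6.73, 7.06 and 7.39 in smoke rats and 6.99, 7.95 and 8.94 in air rats, a fall by 0.92 ± 0.18. Bmal1 stood at 6.58, 6.93 and 7.14 in smoke rats and 6.76, 7.26 and 8.63 in air rats, a fall by 0.55 ± 0.16 (adjusted p = 0.0432) whose call was kept only without rat 104, 105, 304, 305, 604 or 605 when rats were left out singly. Bmal1 and Bhlhe40, which rose by 0.43 ± 0.11 on the average but was at -0.19 under silica, were chosen after their values were seen, and the call of Bhlhe40 ended without rat 504. Rora, an activator that competes with Nr1d1, changed by 1.52 under Iraqi sand, 0.01 without particles and -0.15 under silica. Its 2 probe sets disagreed in sign and its call ended without rat 102, 201, 406, 602 or 603.

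The spread among rats differed between the groups in some of these genes. Without particles, Per2 ranged over 8.64 to 9.91 in the 4 air rats and over 10.38 to 10.49 in the 4 smoke rats, and Bmal1 over 6.76 to 8.63 in air rats and 6.58 to 7.01 in smoke rats. Air rats 102 and 103 had the highest Bmal1, at 8.27 and 8.63, and the lowest Per2, at 9.02 and 8.64. Clock transcripts are known to swing over the day. The hour at which each lung was taken is not in the labels used here, so smoke and hour cannot be told apart for these genes.

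**Figure D4:**
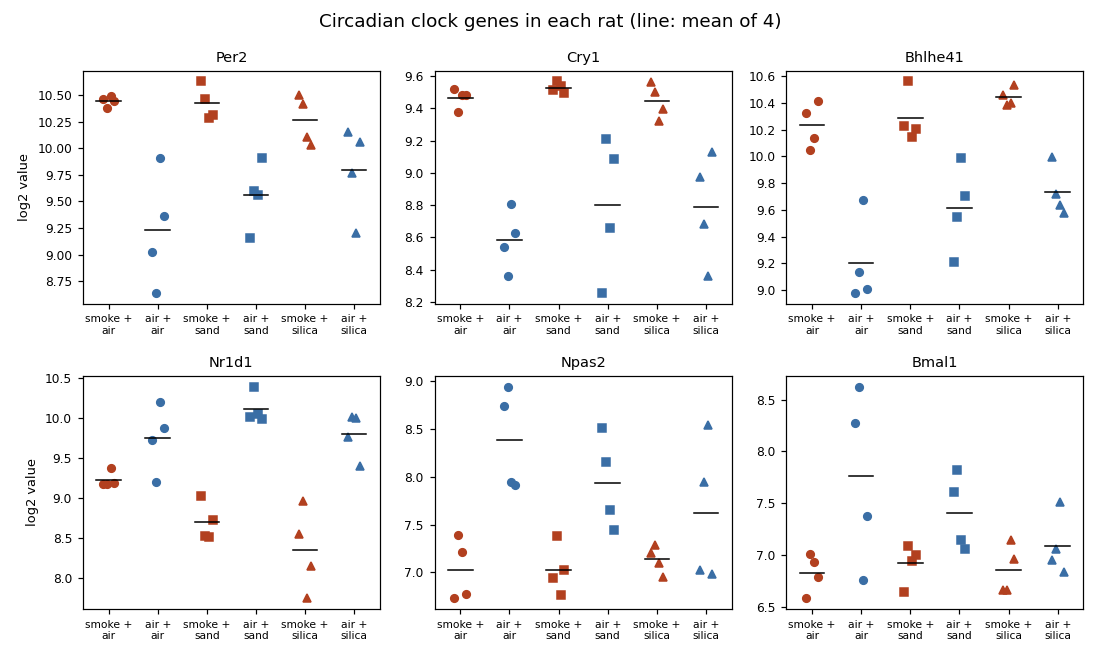
Log2 values of 6 clock genes in each rat with the mean of 4 (line), smoke groups (red) left of the air group (blue) of the same whole-body exposure. Per2, Cry1 and Bhlhe41 lay higher and Nr1d1, Npas2 and Bmal1 lower in smoke rats. In each whole-body exposure the air rats were more spread out than the smoke rats for each of these genes but Nr1d1.

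Promoters of 3 clock genes are shown because they carry elements through which the loop is known to act. Capitals mark the D-box TTANGTAA in Per2, the E-box CACGTG in Bhlhe41, and in Bmal1 the half-site AGGTCA bound by the proteins of both Nr1d1 and Rora. They are RefSeq sequences of build GRCr8, at chr9:99496944-99497243 (minus strand), chr4:180569306-180569605 (minus strand) and chr1:176766078-176766377 (plus strand).
Per2: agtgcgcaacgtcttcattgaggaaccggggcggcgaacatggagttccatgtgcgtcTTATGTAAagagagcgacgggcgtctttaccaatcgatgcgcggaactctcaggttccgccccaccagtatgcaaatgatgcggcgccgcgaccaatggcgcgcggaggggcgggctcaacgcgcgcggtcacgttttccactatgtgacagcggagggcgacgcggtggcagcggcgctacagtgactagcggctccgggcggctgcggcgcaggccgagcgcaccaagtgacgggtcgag
Bhlhe41: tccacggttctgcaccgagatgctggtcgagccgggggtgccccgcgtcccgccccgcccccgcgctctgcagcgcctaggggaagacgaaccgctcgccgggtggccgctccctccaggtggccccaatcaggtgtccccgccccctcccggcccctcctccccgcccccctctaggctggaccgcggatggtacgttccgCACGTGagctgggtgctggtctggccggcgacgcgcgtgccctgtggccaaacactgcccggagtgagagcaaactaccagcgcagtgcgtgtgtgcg
Bmal1: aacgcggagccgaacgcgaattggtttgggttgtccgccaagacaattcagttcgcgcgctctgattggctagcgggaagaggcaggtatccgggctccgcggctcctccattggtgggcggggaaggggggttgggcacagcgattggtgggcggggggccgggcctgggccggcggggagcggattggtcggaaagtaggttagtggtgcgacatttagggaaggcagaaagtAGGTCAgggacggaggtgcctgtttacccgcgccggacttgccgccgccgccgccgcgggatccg
The elements lay 192, 48 and 15 bases before the start. On both strands the D-box was found in 2.24% of all promoters of this length, the E-box in 6.42% and the half-site in 16.2%. Among clock genes with a promoter in the table, the E-box was found in 2 of the 4 that rose and in 0 of the 4 that fell. It was found in 3 of all 17 measured clock genes with a promoter, and a link of the E-box to direction was not tested.

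Of 26 measured T cell genes 12 fell (46.2%), none rose and 14 did not pass, with a median change of -0.42. In all 3 conditions 23 of the 26 were lower, against 3822 of all 14217 genes. Cd3d, a subunit of the T cell receptor complex, stood at 6.50, 7.41 and 7.71 in smoke rats and 7.50, 7.93 and 8.68 in air rats, and it fell by 0.64 ± 0.13 (adjusted p = 0.0052). Cd5, a surface inhibitor of receptor signals, stood at 5.86, 6.85 and 7.17 in smoke rats and 6.97, 7.37 and 8.44 in air rats. Zap70, the kinase recruited to the receptor, fell by 0.59 ± 0.12, and the adaptor Sit1 by 0.65 ± 0.14. The adhesion molecule Cd2 fell by 0.43 ± 0.09, with -0.56, -0.52 and -0.22 in the 3 conditions. The T cell mean was 6.68 to 7.58 in smoke rats and 7.28 to 7.94 in air rats. Rat 604 was lowest, smoke rat 605 stood among the higher air rats, and rats 302 and 104 were highest, so that the 3 rats that stood apart lay on the side of the change. Without these 3 rats 8 T cell genes fell, Cd3d, Cd3e, Cd5 and Zap70 still among them, and the median change of the list was -0.23.

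Of 20 genes of NK and cytotoxic cells 2 fell, the protease Ctsw by 0.39 ± 0.08 and the granzyme Gzmm by 0.58 ± 0.16, and none was higher. The count was 7 without rat 605, 5 without rat 205 and 1 without rat 102, 104, 203, 204, 404, 406, 503, 504, 603 or 604, since the call of Gzmm ended there. Of 16 B cell genes 3 fell, among them the coactivator Pou2af1 by 0.62 ± 0.15, and 5 were called without rat 105 and 1 without rat 104, 203, 404, 503, 603 or 604. Of 30 interferon-stimulated genes 4 fell and 1 rose, with a median change of -0.21. The immunoproteasome subunit Psmb9 fell by 0.43 ± 0.10 and the antiviral gene Rsad2 rose by 0.51 ± 0.13, with 0.01, 0.57 and 0.93 in the 3 conditions. The interferon count was 8 without rat 302 or 405, 3 without rat 102, 103, 203, 301, 501 or 504, and 2 without rat 204, 406, 603 or 604. Of 14 class II antigen presentation genes 1 rose, the protease Ctss by 0.38 ± 0.08, and 3 rose without rat 302.

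**Figure D5:**
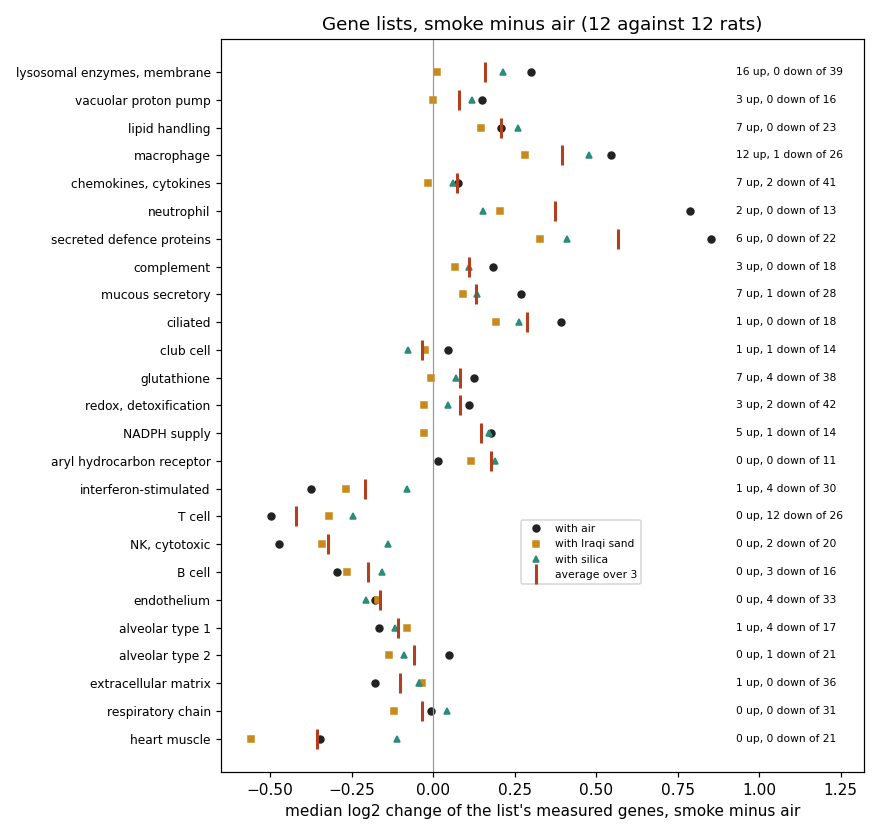
Median log2 change of the measured genes of 25 lists, smoke minus air, on the average (red bar) and in each whole-body exposure (symbols), with the count of genes that rose (up) and fell (down) past the threshold. Macrophage, neutrophil and secreted defence lists lay to the right and T cell, NK and B cell lists to the left in each condition, while the lysosomal, glutathione and NADPH lists were near 0 under Iraqi sand.

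Of 17 alveolar type 1 genes, which line the gas exchange surface, 4 fell and 1 rose, and 8 were called without rat 302. Ager, the receptor that marks these cells, stood at 12.95, 13.14 and 13.30 in smoke rats and 13.14, 13.33 and 13.47 in air rats, a fall by 0.20 ± 0.05 that was -0.21, -0.20 and -0.20 in the 3 conditions. The chloride channel protein Clic3 fell by 0.32 ± 0.06, the receptor Gprc5a by 0.26 ± 0.05 and Aqp5 by 0.24 ± 0.05. Of 21 alveolar type 2 genes 1 fell (4.76%, against 3.7% of all genes), Lpcat1, which remodels surfactant lipid, by 0.40 ± 0.06 (adjusted p = 6.63e-04), with 11.17, 11.37 and 11.69 in smoke rats and 11.58, 11.77 and 12.13 in air rats. Sftpc was at -0.02 ± 0.03 and the lipid transporter Abca3 at -0.14 ± 0.04 (adjusted p = 0.0514). The type 2 count was 4 without rat 604, 3 without rat 305, and 2 without rat 105, 302, 402, 404, 406 or 504.

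Of 33 endothelial genes 4 fell (12.1%, against 3.7% of all genes) and none rose, with a median change of -0.16. In all 3 conditions 18 of the 33 were lower, against 3822 of all 14217 genes. The flow-induced factor Klf2 stood at 11.08, 11.58 and 11.89 in smoke rats and 11.37, 12.20 and 12.89 in air rats, and all 5 of its probe sets were lower. It fell by 0.59 ± 0.10 and the related Klf4 by 0.30 ± 0.06. The junction gene Cldn5 fell by 0.36 ± 0.09, and Icam2 by 0.32 ± 0.08, and it was no longer called without rat 203, 502 or 504. The endothelial count was 8 without rat 304 and 7 without rat 605, and rat 604 had the lowest list mean, 10.21, against 10.56 or more in each other rat.

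The largest falls included genes of varied roles. Hhip, which binds and restrains hedgehog ligands, stood at 5.66, 6.47 and 6.88 in smoke rats and 6.62, 7.26 and 8.08 in air rats, and the overlap came from smoke rats 402 and 605 and the lower air rats. It fell by 0.94 ± 0.16 (adjusted p = 0.0014). Spon2, a matrix protein that binds microbial surfaces, fell by 0.98 ± 0.16, with -1.13, -1.05 and -0.76 in the 3 conditions. The acyl-CoA synthetase Acsm5 stood at 5.30, 6.13 and 7.27 in smoke rats and 5.84, 7.45 and 8.43 in air rats, and its change was -1.62, -1.49 and -0.26. The cytokine-like Fam3b fell by 0.91 ± 0.14, with -1.60 under Iraqi sand against -0.52 and -0.60 elsewhere. The sulfatase Arsi fell by 0.72 ± 0.09, the phosphatase regulator Ppp1r1b by 0.65 ± 0.09, the ribonuclease Rnase6 by 0.75 ± 0.16 and Igfbpl1, of the IGF-binding family, by 0.70 ± 0.13. In Ppp1r1b the smoke and air rats did not overlap within any condition. Ooep, known from oocytes, fell by 0.93 ± 0.21. The neuronal stathmin Stmn2 fell by 0.70 ± 0.19, and it was no longer called without rat 105, 201, 203, 504, 603 or 604.

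Other lists held few calls or none, and the share of all genes that rose was 2.69%. None of 31 respiratory chain genes, 33 genes of folding and secretion, 14 smooth muscle genes, 21 heart muscle genes, 15 mast cell and eosinophil genes or 10 basal cell genes passed in limma on the average. An unadjusted p under 0.05 was found for 3, 3, 3, 0, 3 and 2 of them in that order. Without rat 302, 2 folding and secretion genes rose and 1 fell, as they did without rats 302, 104 and 604. Mast cell and eosinophil genes called were 2 without rat 605 and 1 without rat 102, 103, 304, 305, 405 or 501, and without rat 304 1 basal cell gene was called. Of 36 matrix genes 1 rose (2.78%, near the share of all genes), decorin (Dcn), by 0.53 ± 0.16. Its call was kept only without rat 104, 205, 301, 302, 406 or 605 when rats were left out singly. Without rat 302 1 matrix gene rose and 3 fell, while without rat 406 2 were called. The collagen Col1a1 was at -0.16 ± 0.23. Of 39 cell cycle genes 2 rose (5.13%), the cytokinesis gene Prc1 by 0.48 ± 0.11 and the replication licensing inhibitor Gmnn by 0.43 ± 0.11. Without rat 205 or 605 4 were called. The other probe set of Gmnn changed by 0.09. Prc1 changed by 0.52, 0.42 and 0.49 in the 3 conditions and was still called without rats 302, 104 and 604. Of 20 glycolysis genes 2 rose (10.0%), among them the glucose transporter Slc2a1 by 0.41 ± 0.09. Of 20 iron and heme genes 2 rose (10.0%), the iron exporter Slc40a1 by 0.21 ± 0.05 and the iron sensor Aco1 by 0.22 ± 0.06. The iron count was 5 without rat 302 and 4 without rat 605. The growth regulator Myc rose by 0.29 ± 0.07, the lipid synthesis gene Acly fell by 0.16 ± 0.04, and Wt1, a mesothelial factor, fell by 0.52 ± 0.11.

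Whether the smoke effect itself differed between particle conditions was tested with an F test over both differences. It passed for 2 of 14217 genes (0.0141%), neither of them among the 908, and 863 genes had an unadjusted p under 0.05, including 126 of the 908. The 2 genes, Ccnd2 and Cped1, were chosen after their values were seen. Ccnd2, a D-type cyclin, averaged 9.60 ± 0.16 in smoke rats and 9.68 ± 0.31 in air rats without particles, 10.14 ± 0.43 in smoke rats and 8.86 ± 0.36 in air rats under Iraqi sand, and 10.40 ± 0.14 in smoke rats and 10.91 ± 0.18 in air rats under silica (SD, n = 4 each). Smoke was thus higher under Iraqi sand and lower under silica, and the adjusted p was 0.0371 in limma's F test. Cped1 averaged 7.69 ± 0.12 in smoke rats and 8.21 ± 0.14 in air rats without particles, 8.48 ± 0.16 in smoke rats and 7.79 ± 0.26 in air rats under Iraqi sand, and 8.78 ± 0.22 in smoke rats and 8.97 ± 0.21 in air rats under silica (SD, n = 4 each). With each rat left out in turn, 8 of 24 fits kept the call of Ccnd2 and 6 of 24 that of Cped1, with adjusted p up to 0.121 and 0.176.

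Among the 908 genes the smallest p of this F test belonged to Rora, to the transcription factors Klf13 and Bbx, and to C11h21orf91, for which no role is given, each of which lacked a single direction. Bbx changed by 1.05 under Iraqi sand, against -0.02 without particles and -0.04 under silica, and C11h21orf91 by 1.25, against -0.05 and 0.06. The call of Klf13 in the average was kept only without rat 103, 204, 205, 302, 405, 504, 604 or 605 when rats were left out singly. Card14, a scaffold of NF-kB signalling, kept 1 direction, with 1.23 without particles, 0.35 under Iraqi sand and 0.48 under silica. It stood at 8.62, 8.93 and 9.12 in smoke rats and 7.54, 8.30 and 8.65 in air rats, so that only the highest air rats reached the lowest smoke rat, and it rose by 0.69 ± 0.07 (adjusted p = 1.33e-05).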

How the data were processed

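RNA from the right caudal lobe of the lung was hybridised to 1 Affymetrix rat expression array per animal, in 6 groups of 4. The deposited values are on a log2 scale and were made with RMA per the submitters' processing notes, whose version is not given in the sources used here. RMA corrects background, equalises the arrays' distributions and summarises the probes of a probe set, so a shift shared by all genes is removed. Scanner intensities and detection calls were not used here, so that a dim gene has no measured floor. The number of arrays limits the precision. The labels number each rat, so each p-value rests on differences between animals.

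Of 31099 probe sets, 57 controls were dropped, 20826 had exactly 1 gene symbol in the platform annotation, 436 had several and 9780 had none. The brightest probe set stood for each of 14217 genes, and 14167 matched RefSeq (GRCr8) by gene number. Group means were fitted with limma 3.58.1 in R 4.3.3, plain empirical Bayes shrinkage, with a Benjamini-Hochberg adjusted p under 0.05 over all genes. The smoke effect was the mean of the 3 smoke minus air differences. The fit was also run on simulated data with independent normal noise for each gene. Those data held no rats that stood apart, so that run does not bear on the effect of such rats. Settings varied are given at the end.

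Named genes were the 20 largest rises and 20 largest falls with 1 direction, genes whose groups did not overlap, up to 5 members of each gene list by the size of the moderated t, the 5 called genes with the smallest interaction p, and 16 fixed genes. Only some of these are described. The members, lists and tests were chosen with earlier results of these data known. No scan batch is given in the labels used here.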

Additional observations from a re-analysis of the deposited data

Results flagged for a closer look

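Within groups of 4 rats, the highest or lowest rat was compared with the next by Dixon's test at 95%, over 18 genes and 6 list means. It set 16 of 144 groups apart, where chance sets apart about 1 in 20, and the values of one rat across genes are not independent.

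Rat 201, of the smoke group without particles, was highest in its group in 5 of these comparisons. It stood at 13.73 for Gpnmb against 13.23 in the next rat, at 11.75 for Cd68 against 11.15, and at 13.31 for S100a9 against 11.62. Its macrophage list mean was 10.90 against 10.46, and its neutrophil list mean 9.39 against 8.03. In the same smoke group rat 204 was highest for Nr1d1, at 9.38 against 9.19, and rat 203 lowest for Hhip, at 5.74 against 6.40.

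Rat 104, of the air group without particles, stood highest for Muc5b, at 10.38 against 8.18, and lowest for Chia, at 9.95 against 11.90. Its heart muscle list mean was 8.71 against 6.27 in the next rat. Rat 102 of that group was highest for Cyp4b1, at 12.85 against 12.64. Rat 302, of the air group with Iraqi sand, had a heart muscle mean of 8.74 against 5.97 and the highest Nr1d1, 10.39 against 10.05. In the silica conditions, smoke rat 604 was lowest for Cyp4b1, at 10.94 against 11.99. Air rat 501 was highest for Cxcl1, at 10.79 against 10.04, and air rat 502 lowest for Ccnd2, at 10.65.

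The smoke effect differed between particle conditions for Ccnd2 and for Cped1, each with an adjusted p of 0.0371 in limma's F test. The smoke effect of Ccnd2 was -0.08 without particles, 1.28 under Iraqi sand and -0.51 under silica, and that of Cped1 was -0.52, 0.69 and -0.20. Neither passed in the average over conditions (adjusted p = 0.199 and 0.961).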

How the results depend on the processing

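All settings were chosen with earlier results of these data known. The count of 908 genes was 899 with trend and robust shrinkage, 914 with an additive block, 887 with probe set means and 998 after repeated quantile normalization. Among genes at or above the median level alone, so over fewer genes, it was 784, and 610 of these were among the 908. On the air and silica conditions alone it was 713, but only 481 of these were among the 908. The count of 908 moved to 119 with a change of at least 1.5-fold and to 2651 with array quality weights. It was 312 on the air and Iraqi sand conditions and 108 on the sand and silica conditions. It was 210 with RNA integrity as covariate on 19 arrays and 246 on these arrays without it, so most of that loss came with the smaller set. Centring arrays on their medians gave 1158, 406 up and 752 down. Without rat 302 it was 1463, without rats 302, 104 and 604 1182, and over single rats 586 to 1463. The 868 genes with 1 direction became 117, 2404, 207, 240 and 1389 with the fold minimum, the weights, the covariate, the 19 arrays and without rat 302, and 562 to 1389 over single rats. The 2 genes of the F test became 4 with probe set means, 17 with weights, 6 with centring, 0 with the covariate or on the 19 arrays, 6 without the 3 rats, 4 without rat 302 and 0 to 11 over single rats. The shares with the same sign were 87.5% under sand and 88.5% under silica without rat 302, and 90.0% and 88.8% without the 3 rats. Of the changes of genes named, 5 turned sign: Hmox1 was at -0.0082 on the sand and silica conditions, Sftpc at 0.015 after repeated quantile normalization, and Rora, Klf13 and Bbx at -0.068, -0.052 and -0.031 on the air and silica conditions. The next counts are of pairs of a gene named and a fit, not of the 908 genes. With single rats left out, 129 calls were lost, 12 were gained, 3123 stayed the same and 0 changes turned sign. Under the other settings 307 were lost, 21 were gained and 1526 stayed the same. The causes of these shifts were not tested. No paired analysis was possible because rat numbers are not shared between groups.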

Other observations

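Some smaller lists also held genes that passed. Of 21 proteases and inhibitors 2 rose, Mmp12 and the membrane protease Adam8, and 4 were called without rat 305. Adam8 stood at 9.04, 10.39 and 11.29 in smoke rats (lowest, median and highest) and 8.69, 9.56 and 10.13 in air rats, a rise by 0.81 ± 0.19 (SE, adjusted p = 0.0152 in limma), and its 2 probe sets differed in sign. Of 23 immediate early genes 3 fell, Klf2, Klf4 and Zfp36, and 1 rose, Myc. Zfp36, which speeds the decay of cytokine messages, fell by 0.33 ± 0.09, with -0.46 without particles, -0.05 under Iraqi sand and -0.49 under silica, and its call was kept with each rat left out in turn.

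Of 18 genes of glucocorticoid response and metallothioneins 2 rose and 2 fell, and Per1 was 1 of those that fell. The metal-binding Mt2A stood at 9.55, 9.79 and 10.72 in smoke rats and 9.12, 9.35 and 10.15 in air rats, a rise by 0.54 ± 0.15 whose call ended without rat 103, 201, 203, 301, 502, 503 or 604. The kinase Sgk1 rose by 0.23 ± 0.06, and it was no longer called without rat 102, 203 or 602. Errfi1, an inhibitor of the EGF receptor, fell by 0.32 ± 0.09, and it was no longer called without rat 102, 103, 203, 204, 405, 406, 502, 503 or 603. The count of this list was 1 without rat 103, 203 or 502 and 2 without rat 102, 204, 406 or 603. Of 18 heat shock genes 1 rose, the chaperone Hspa4l, by 0.68 ± 0.18, which was not called without rat 104, 203, 204, 504, 603 or 604. Of 6 red cell genes 1 rose, the heme synthesis gene Alas2, by 0.38 ± 0.11, with -0.03 without particles, 0.38 under Iraqi sand and 0.78 under silica. Its call was kept only without rat 104, 201, 205, 302, 402, 405, 503, 602 or 605 when rats were left out singly.

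Probe sets outside the named genes, because they carried no symbol or several, numbered 10216. In a fit of their own 98 of them rose and 102 fell, and 180 of these had the same direction in all 3 particle conditions.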
